A study of Homo sapiens with 18 samples.

Results

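The genes of glycolysis and of the hypoxia response were followed in U87MG, an established line of human glioblastoma cells, with and without Erastin, a small molecule that blocks cystine uptake through system Xc- and triggers ferroptosis. The set held 38 genes out of the 58302 listed in the count table. They were chosen by name, with earlier results of these data known, and found by Ensembl identifier. They fall into 2 glucose transporters, 17 genes of the glycolytic steps, 5 genes of lactate and pyruvate handling, and 14 genes of the hypoxia-inducible factor (HIF) system. RNA-seq counts came from 4 libraries, 2 of control cells and 2 of cells given 10 μM Erastin for 72 h. The RNA-seq labels name no vehicle for the controls, all libraries came from the same line, and each holds the RNA of a whole culture. The labels do not say whether the replicates came from separate cultures, so p-values measure only the spread between these libraries.

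Glycolysis turns glucose into pyruvate in the cytosol. Glucose enters through transporters, is trapped by hexokinase, split in the upper steps and oxidised in the lower ones, which yield ATP. Pyruvate can then enter mitochondria or be reduced to lactate, which leaves the cell through monocarboxylate transporters. HIF is a dimer of an oxygen-sensitive alpha subunit (HIF1A or EPAS1) and a stable beta subunit. When oxygen is present, prolyl hydroxylases of the EGLN family mark the alpha subunit for destruction, and when it is short the dimer binds a core element written ACGTG or GCGTG and switches on glucose transporters, glycolytic enzymes and angiogenic factors. Glioblastoma is known for high glycolysis and for hypoxic zones.

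The stretches around the transcription start of 4 textbook HIF targets are shown because these genes carry the core letters in the window and yet moved in different directions with Erastin (EGLN1 and ADM higher, CA9 and LDHA lower, with their values given further on). Each is a RefSeq window of GRCh38.p14, 300 bases long, from 250 bases before to 50 bases after the start, printed 5′ to 3′ on the strand of the gene. Capitals mark ACGTG or GCGTG on either strand, so that CACGT and CACGC are the same letters read on the opposite strand and CACGTG is an overlapping match on both strands.
EGLN1, chr1:231422238-231422537, minus strand: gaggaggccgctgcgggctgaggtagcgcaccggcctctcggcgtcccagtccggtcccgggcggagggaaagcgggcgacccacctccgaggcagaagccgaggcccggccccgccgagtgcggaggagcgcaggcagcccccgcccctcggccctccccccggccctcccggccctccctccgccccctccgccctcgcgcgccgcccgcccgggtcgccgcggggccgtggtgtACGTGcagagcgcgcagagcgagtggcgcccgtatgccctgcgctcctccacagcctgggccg
ADM, chr11:10304823-10305122, plus strand: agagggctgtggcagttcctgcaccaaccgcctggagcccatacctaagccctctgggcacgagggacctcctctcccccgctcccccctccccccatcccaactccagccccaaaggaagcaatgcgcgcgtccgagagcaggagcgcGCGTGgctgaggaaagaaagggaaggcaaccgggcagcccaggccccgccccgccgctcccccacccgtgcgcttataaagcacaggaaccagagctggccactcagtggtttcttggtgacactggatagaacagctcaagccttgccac
CA9, chr9:35673678-35673977, plus strand: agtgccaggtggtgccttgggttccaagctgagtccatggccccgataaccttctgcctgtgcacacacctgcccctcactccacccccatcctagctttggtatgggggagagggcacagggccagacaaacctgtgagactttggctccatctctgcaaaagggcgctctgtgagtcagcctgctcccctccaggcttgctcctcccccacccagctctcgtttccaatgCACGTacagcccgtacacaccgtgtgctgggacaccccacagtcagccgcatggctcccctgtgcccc
LDHA, chr11:18394313-18394612, plus strand: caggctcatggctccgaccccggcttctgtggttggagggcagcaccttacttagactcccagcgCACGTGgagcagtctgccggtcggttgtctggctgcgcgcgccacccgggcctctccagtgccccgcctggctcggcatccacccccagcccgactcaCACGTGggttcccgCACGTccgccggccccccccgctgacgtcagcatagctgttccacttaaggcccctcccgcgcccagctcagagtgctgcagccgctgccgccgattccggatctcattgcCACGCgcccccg

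The match began 13 bases before the start in EGLN1, 18 bases before it in CA9 and 101 bases before it in ADM. In LDHA the letters occurred at several places between 185 bases before the start and base 39 of the transcript. Such a match is a description of the letters and not a bound site. RefSeq windows matched 33 of the 38 genes and gave 61 windows, since several genes have more than 1 start. Of these windows, 42 (68.9%) held ACGTG or GCGTG, against 48.4% of the 35116 windows of all genes. ACGTG alone was in 23 windows (37.7%), against 21.4% of all windows. Windows of 1 gene can overlap, so they are not independent.

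Library totals ranged from 29412656 to 31513519 counts, and 16751 genes passed the filter on low counts and were tested. Astrocytic and glioma markers were unevenly represented: VIM, CD44 and TNC were abundant, whereas AQP4 was at 0 in all 4 libraries, GFAP had 41 to 81 counts and 12 such markers summed to 6572 to 6669 CPM (counts divided by the TMM-adjusted library size) in control and 3464 to 3677 CPM in Erastin. Markers of other cells were mostly sparse, with microglial AIF1 and TYROBP, endothelial CLDN5 and oligodendrocyte MOG at 0 everywhere. Their summed levels were 8.82 to 8.83 and 5.52 to 6.87 CPM for 7 microglial markers, 19.4 to 23.3 and 7.82 to 9.68 CPM for 6 endothelial markers, 0.523 to 0.805 and 0.159 to 0.201 CPM for 4 oligodendrocyte markers, and 108 to 111 and 87.7 to 104 CPM for 6 neuronal markers, control first in each case. Some of these markers had more counts than GFAP. Neuronal MAP2 had 1612 to 2755 counts, and SNAP25 had 1070 and 1215 in control and 95 and 135 in Erastin. Microglial CSF1R had 147 to 259 counts and endothelial KDR had 108 to 268. CDKN2A, which U87MG is known to have lost, was at 0 in all 4 libraries. A 0 is a weak check, since 3808 of 19708 protein-coding genes were at 0 in every library. Reads that matched more than 1 place were also discarded. Mitochondrially encoded genes held 7.85% and 7.23% of all counts in control and 2.80% and 3.54% in Erastin. Changes between groups are therefore given on the TMM scale, on which the median tested gene moved by a log2 fold change of −0.00259.

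Of the 38 genes, 37 were tested, and 15 were higher and 9 lower in Erastin at an adjusted p under 0.05 of edgeR's quasi-likelihood test, while 13 did not pass. This was 40.5% higher and 24.3% lower, beside 23.2% and 23.7% (47.0% together) of all tested genes. With the further threshold of a log2 fold change of 1 in size, 1 gene was upregulated (ADM) and 2 were downregulated (HIF1A and CA9), or 2.70% and 5.41%, beside backgrounds of 6.24% and 9.34%. Most changes of the set were thus under 2-fold. CA12 lay at the fold limit and made the lower calls 3 without Erastin replicate 2 or control replicate 2. The higher calls became 3 without control replicate 1, with SLC2A1 (1.07) and ANKRD37 (1.73) added, and 2 without Erastin replicate 1, with ANKRD37 (1.18). For 19 genes the treated libraries were both higher than either control, for 12 both lower, and for 6 the groups overlapped. Over all tested genes, 36.7% lay above and 36.9% below in this way, 73.6% in all. The median log2 fold change of the 37 genes was 0.17. The set took 2.44% and 2.29% of all counts in control and 2.47% in each Erastin library.

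**Figure D1:**
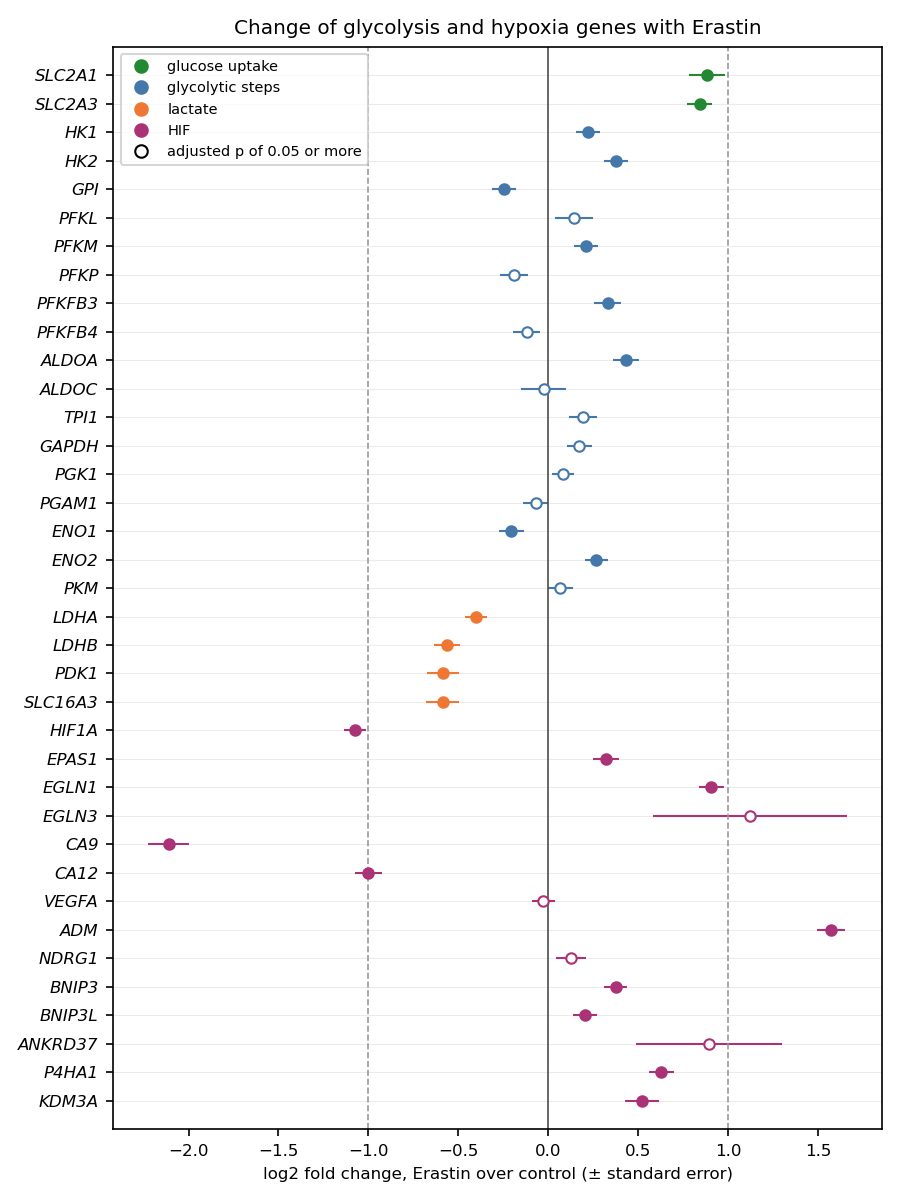
Log2 fold change of each tested gene, Erastin over control, with its standard error from edgeR (2 libraries a group). Filled points passed an adjusted p of 0.05, dashed lines mark 1 and −1, and the colours give the role. CA9 and HIF1A lie beyond the lower line, CA12 on it, and ADM beyond the upper one, while the glycolytic steps lie between −0.25 and 0.43.

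Both glucose transporters of the set rose past the adjusted p, beside 23.2% higher over all tested genes. They are too few to compare with that share. SLC2A1 (ENSG00000117394, chr1:42925375-42959173 on GRCh38), which encodes the basal transporter GLUT1, had 2369 and 1882 counts in control and 3812 and 3988 counts in Erastin. Both treated libraries were above both controls, and the controls lay further apart than the treated libraries. Its level rose from 69.0 ± 11.9 to 127 ± 0.369 CPM (SD, n = 2), with a log2 fold change of 0.88 (standard error 0.1, edgeR adjusted p = 2.01e-05). SLC2A3 (ENSG00000059804), which encodes the high-affinity transporter GLUT3 typical of neurons, had 2630 and 2794 counts in control and 4680 and 4994 in Erastin. It rose from 88.0 ± 2.78 to 158 ± 1.75 CPM (SD, n = 2), with a log2 fold change of 0.84 (standard error 0.0679, edgeR adjusted p = 1.19e-06). The 2 genes rose by nearly the same factor, 1.84-fold and 1.79-fold, and SLC2A1 took 50.4% of their joint expression per length in control and 51.3% in Erastin. In bulk RNA, more or fewer cells of a kind and more or less RNA per cell cannot be told apart.

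The glycolytic steps changed little and in both directions. Of their 17 genes, 6 rose, 2 fell and 9 did not pass, beside 23.2% higher and 23.7% lower over all tested genes. The 17 log2 fold changes lay between −0.25 and 0.43, with a median of 0.14. ALDOA (ENSG00000149925), the main aldolase, which splits fructose-1,6-bisphosphate, moved most. It had 71251 and 63791 counts in control and 90703 and 90888 in Erastin, without overlap, and went from 2192 ± 196 to 2963 ± 98.9 CPM (SD, n = 2), with a log2 fold change of 0.43 (standard error 0.0723, edgeR adjusted p = 0.000397). HK2 (ENSG00000159399), the inducible hexokinase of many tumours, had 6750 and 6362 counts in control and 8333 and 8598 in Erastin. Its treated libraries lay above both controls, and its log2 fold change was 0.38 (standard error 0.0670, edgeR adjusted p = 0.000657). PFKFB3 (ENSG00000170525), which makes the phosphofructokinase activator fructose-2,6-bisphosphate, had 4033 and 3628 counts in control and 4786 and 4799 in Erastin, a log2 fold change of 0.33 (standard error 0.0761, edgeR adjusted p = 0.00370). Its relative PFKFB4 had 2830 and 2783 counts against 2606 and 2529, a log2 fold change of −0.12 that did not pass (edgeR adjusted p = 0.206).

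The other glycolytic genes that rose did so by less. HK1, the hexokinase of most tissues, rose by a log2 fold change of 0.22, the muscle-type phosphofructokinase PFKM by 0.21 and the neuronal enolase ENO2 by 0.27 (edgeR adjusted p = 0.0166, 0.0230 and 0.00418). GPI, which turns glucose-6-phosphate into fructose-6-phosphate, fell by 0.25 on the log2 scale, and ENO1, the ubiquitous enolase, by 0.20 (edgeR adjusted p = 0.00924 and 0.0314). ENO1 had 105441 and 95459 counts in control and 82740 and 90873 in Erastin, so its nearest libraries were 95459 and 90873. The other small changes were also near the limit of 4 libraries. HK1 did not pass the adjusted p without Erastin replicate 1 or control replicate 2 (0.19 and 0.15). Nor did GPI without either Erastin replicate (−0.24 and −0.26) or ENO2 without Erastin replicate 1 (0.25). PFKM did not pass without either Erastin replicate or control replicate 2 (0.20, 0.22 and 0.17). ENO1 did not pass with library totals as the only scaling (edgeR adjusted p = 0.0631) or with a replicate block (0.0687). The same held when Erastin replicate 1, Erastin replicate 2 or control replicate 1 was left out (log2 fold changes of −0.17, −0.24 and −0.12).

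Glyceraldehyde-3-phosphate dehydrogenase (GAPDH, ENSG00000111640), often used as a reference gene, had 96188 and 88242 counts in control and 98153 and 108919 in Erastin. Both treated libraries were higher, and its level was 2993 ± 216 CPM in control and 3374 ± 131 CPM in Erastin (SD, n = 2), a log2 fold change of 0.17 that just missed the threshold (standard error 0.0690, edgeR adjusted p = 0.0589). With DESeq2 the adjusted p was 0.0355, and without control replicate 1 the edgeR log2 fold change was 0.25 and passed. TPI1, which interconverts the triose phosphates, stood at a log2 fold change of 0.19 (edgeR adjusted p = 0.0605), or 0.0414 with DESeq2. It passed without control replicate 1 (0.32). PKM (ENSG00000067225), the pyruvate kinase that makes pyruvate and ATP, had 144717 and 130478 counts in control and 141151 and 145699 in Erastin. Its groups overlapped, and the log2 fold change, which was −0.025 without control replicate 2 and 0.15 (past the threshold) without control replicate 1, was 0.07 with a 95% interval from −0.09 to 0.22 (edgeR adjusted p = 0.466). Gene counts do not separate its M1 and M2 splice forms.

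The remaining glycolytic genes did not pass. PFKP, the platelet-type phosphofructokinase, had a log2 fold change of −0.19 (edgeR adjusted p = 0.0639), which passed without control replicate 2 (−0.30), and the liver-type PFKL had 0.14, with 6173 and 4809 counts in control against 6151 and 5898. The value of PFKL depended on the control library: it was −0.046 without that library, and without control replicate 1 it was 0.34 and passed. PGK1, the first ATP-yielding step, stood at 0.08, PGAM1, the phosphoglycerate mutase, at −0.07, and ALDOC, the aldolase of brain, at −0.03. VEGFA and ALDOC changed sign, to 0.024 each, when library totals were the only scaling.

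**Figure D2:**
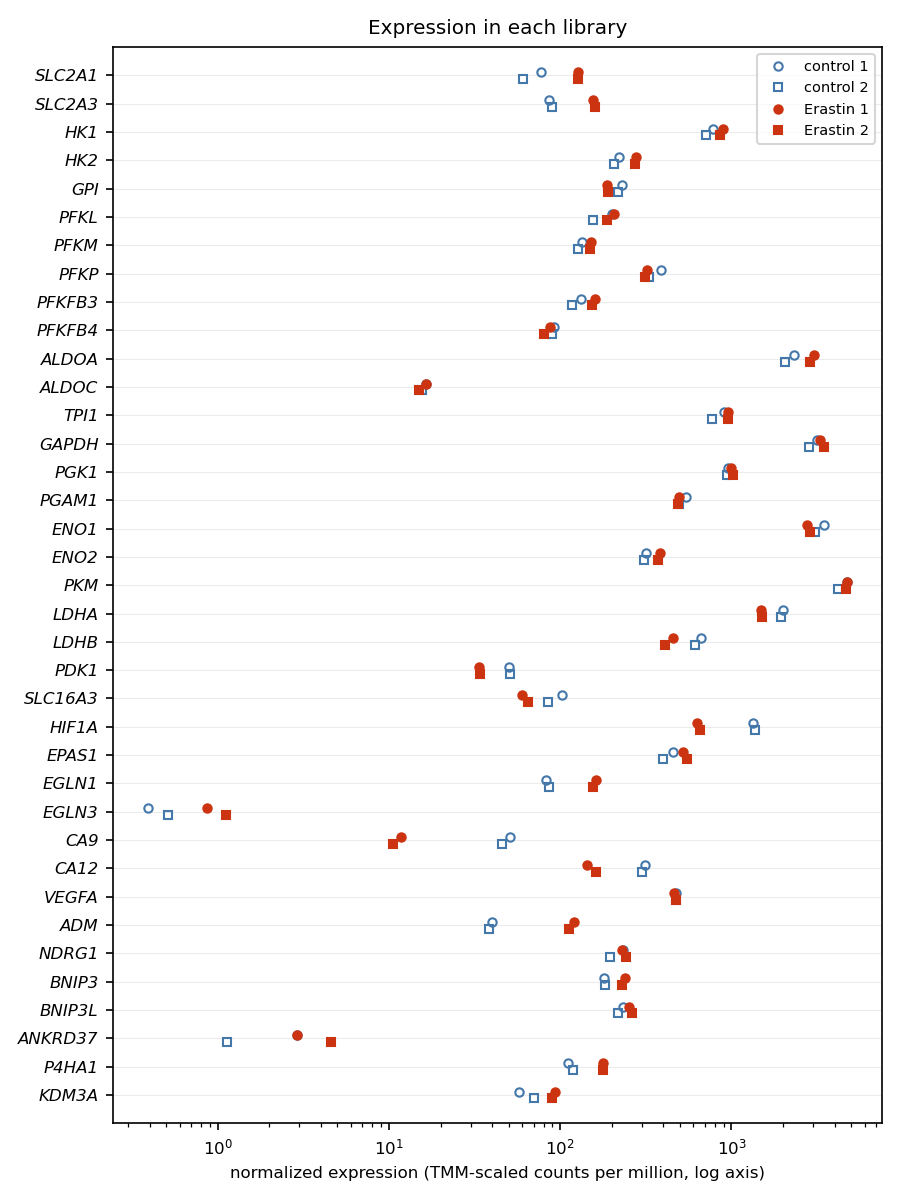
Expression of each tested gene in each of the 4 libraries, in TMM-scaled CPM on a log axis. Open symbols are control and filled symbols Erastin libraries, and circles and squares are replicates 1 and 2. Most glycolytic genes show the 4 libraries close together, whereas HIF1A, CA9, CA12, ADM and EGLN1 show 2 separate pairs.

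Summed over the genes of each step, expression rose most for the transporters and fell most for lactate and pyruvate handling. The steps between went both ways. The monocarboxylate transporter step was SLC16A3 alone, since SLC16A1 was at 0 in every library. Counts per kilobase of exon on the TMM scale were 81.8% higher in Erastin for the 2 transporters, 19.6% higher for the hexokinases, 34.6% higher for the aldolases and 14.4% higher for TPI1. They were 15.7% lower for GPI, 10.5% lower for the enolases and 27.5% lower for the lactate dehydrogenases (ratio 0.725). Of 15 steps, 7 were higher and 5 lower without overlap between the groups, and 3 overlapped (phosphofructokinase, phosphoglycerate mutase and pyruvate kinase). This is near the 73.6% of all tested genes without overlap. On the TPM scale, which divides counts by exon length and sets every library to the same sum, 12 of the 15 steps kept their direction, and phosphofructokinase, phosphoglycerate mutase and enolase turned to 9.93%, 8.79% and 2.22% higher. The log2 ratio of the phosphofructokinases in TPM was 0.14, and it ran from 0.058 without control replicate 2 to 0.22 without control replicate 1. TPM moved the median tested gene by 0.187 on the log2 scale, and mitochondrial genes took 27.5% and 25.7% of TPM in control and 10.9% and 13.8% in Erastin.

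**Figure D3:**
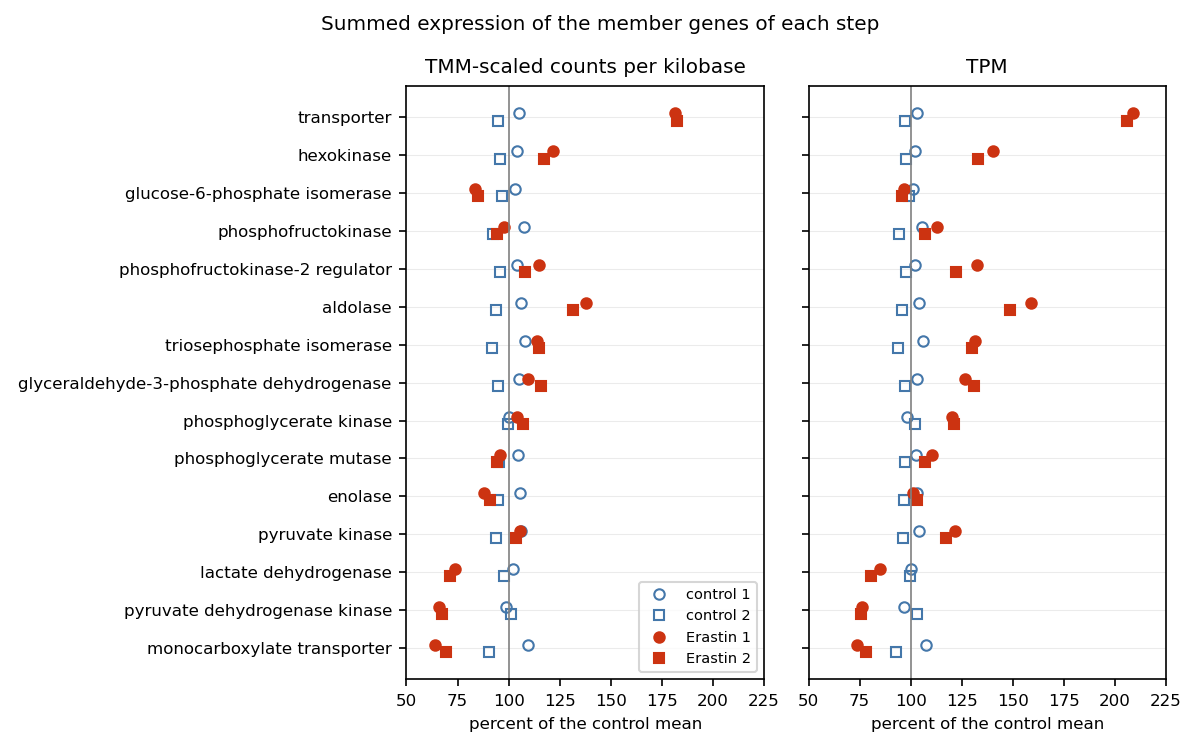
Summed expression of the genes of each step in each library, as a percentage of the control mean, in the order of the pathway. The left panel uses TMM-scaled counts per kilobase and the right panel TPM, which puts most genes higher in Erastin. Transporters are highest and lactate dehydrogenase, pyruvate dehydrogenase kinase and monocarboxylate transporter (SLC16A3 alone) are lowest on both scales.

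All 4 tested genes of lactate and pyruvate handling fell past the adjusted p, beside 23.7% lower over all tested genes. They are too few to compare with that share. LDHA (ENSG00000134333, chr11:18394388-18408425), the lactate dehydrogenase subunit that favours lactate formation, had 60864 and 60423 counts in control and 44218 and 47127 in Erastin. Its libraries fell into 2 separate pairs, and it went from 1968 ± 32.1 to 1489 ± 15.2 CPM (SD, n = 2), with a log2 fold change of −0.40 (standard error 0.0606, edgeR adjusted p = 0.000189). LDHB (ENSG00000111716), the subunit that favours pyruvate, had 20280 and 19092 counts against 13695 and 12821, a log2 fold change of −0.56 (standard error 0.0739, edgeR adjusted p = 6.58e-05). Both subunits fell, LDHB by the larger fold, so that LDHA took 59.7% of their joint expression per length in control and 62.3% in Erastin. The difference of 2.64 percentage points ran from 1.12 without Erastin replicate 2 to 4.16 without Erastin replicate 1.

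PDK1 (ENSG00000152256) encodes a kinase that switches off pyruvate dehydrogenase and so limits the use of pyruvate within mitochondria. It had 1528 and 1586 counts in control and 999 and 1066 in Erastin. The pairs did not overlap, and the log2 fold change was −0.59 (standard error 0.0875, edgeR adjusted p = 0.000178). SLC16A3 (ENSG00000141526), which encodes the lactate exporter MCT4, had 3144 and 2646 counts against 1799 and 2042. It fell by 0.59 on the log2 scale as well (standard error 0.0938, edgeR adjusted p = 0.000293), with 6.04% of its exon bases shared with other genes, where reads were not counted. SLC16A1 (ENSG00000155380), which encodes MCT1, was listed at 0 in all 4 libraries and could not be tested. Reads that matched more than 1 place were discarded, and whether reads of SLC16A1 were among them was not tested, so the 0 sets no limit on its expression. Of 19708 protein-coding genes, 3808 were at 0 in the same way.

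The HIF system held the largest changes of the set, in both directions. Of its 14 genes, 7 rose, 3 fell and 4 did not pass, while 23.2% of all tested genes were higher and 23.7% lower. Past both thresholds, 1 of the 14 was higher (ADM) and 2 were lower (HIF1A and CA9). The shares of all tested genes past both were 6.24% and 9.34%. The middle value of the 14 log2 fold changes was 0.35. HIF1A (ENSG00000100644, chr14:61695513-61748259), the alpha subunit that drives most glycolytic targets, had 40741 and 42436 counts in control and 18823 and 20506 in Erastin. Every treated library was under every control library, and the level fell from 1349 ± 23.8 to 641 ± 16.5 CPM (SD, n = 2), with a log2 fold change of −1.07 (standard error 0.0625, edgeR adjusted p = 7.60e-08). EPAS1 (ENSG00000116016), which encodes the second alpha subunit HIF-2α, had 13919 and 12374 counts against 15513 and 17216. It rose by a log2 fold change of 0.32 (standard error 0.0749, edgeR adjusted p = 0.00401). HIF-1α is controlled mainly by the stability of the protein, which RNA counts do not show.

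The hydroxylase EGLN1 (ENSG00000135766, chr1:231363751-231425044), the main oxygen sensor acting on HIF-1α, had 2534 and 2673 counts in control and 4818 and 4900 in Erastin. It rose from 84.5 ± 2.24 to 159 ± 3.63 CPM (SD, n = 2), with a log2 fold change of 0.91 (standard error 0.0682, edgeR adjusted p = 6.57e-07). EGLN3 (ENSG00000129521), a hypoxia-induced relative, was near the limit of detection, with 12 and 16 counts against 26 and 35. Its log2 fold change of 1.12 did not pass (standard error 0.541, edgeR adjusted p = 0.111), and it passed when only genes with at least 10 counts in every library were tested (adjusted p = 0.0460).

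The carbonic anhydrases, membrane enzymes that help to keep cell pH steady when acid leaves the cell, both fell. CA9 (ENSG00000107159, chr9:35673856-35681159), a classic marker of hypoxia, had 1551 and 1420 counts in control and 350 and 334 in Erastin. This was the largest change of the set, from 48.2 ± 3.55 to 11.2 ± 0.758 CPM (SD, n = 2), with a log2 fold change of −2.11 (standard error 0.114, edgeR adjusted p = 4.13e-08). Of its exon bases, 38.5% overlap ARHGEF39 on the opposite strand. The counting ignored strand, so reads matching both genes were left out. ARHGEF39 had 321 and 377 counts in control and 93 and 112 in Erastin. CA12 (ENSG00000074410, chr15:63321378-63382161) had 9507 and 9375 counts against 4291 and 5119. Its log2 fold change was −0.9998, just short of the fold threshold (standard error 0.0749, edgeR adjusted p = 6.38e-07), and it ran from −0.91 without Erastin replicate 1 to −1.09 without Erastin replicate 2, past the threshold in the latter.

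ADM (ENSG00000148926, chr11:10304680-10307397), which encodes the vasodilating peptide adrenomedullin, had 1227 and 1191 counts in control and 3611 and 3539 in Erastin. It rose 2.97-fold, from 39.2 ± 1.26 to 117 ± 5.72 CPM (SD, n = 2), with a log2 fold change of 1.57 (standard error 0.0768, edgeR adjusted p = 1.85e-08). VEGFA (ENSG00000112715), the angiogenic growth factor most often read as a HIF target, had 14544 and 14781 counts against 13825 and 14837. Its level was 476 ± 0.114 CPM in control and 467 ± 7.07 CPM in Erastin (SD, n = 2), and the log2 fold change was −0.03 with a 95% interval from −0.16 to 0.11 (edgeR adjusted p = 0.762). Of these secreted factors, ADM rose in both treated libraries, while for VEGFA the interval left out a 2-fold change in either direction.

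Among the other HIF targets, P4HA1, a collagen prolyl hydroxylase, had 3384 and 3694 counts in control and 5311 and 5580 in Erastin (log2 fold change 0.63, edgeR adjusted p = 1.48e-05). KDM3A, a histone demethylase, had 1746 and 2186 counts against 2783 and 2820 (0.52, edgeR adjusted p = 0.000775). The mitophagy receptors BNIP3 and BNIP3L rose by 0.38 and 0.20 on the log2 scale (edgeR adjusted p = 0.000520 and 0.0262). In these 4 genes every treated library was above every control library. However, BNIP3L did not pass the adjusted p without either Erastin replicate or control replicate 2 (0.23, 0.18 and 0.15). NDRG1, a stress-responsive gene of cell differentiation, did not pass with 0.13, a value that ran from 0.00 without control replicate 2 to 0.25 without control replicate 1, where it passed. ANKRD37 had 89 and 35 counts in control and 87 and 144 in Erastin, so its groups overlapped and its log2 fold change of 0.89 did not pass (edgeR adjusted p = 0.0936). It shares 35.2% of its exon bases with UFSP2 on the opposite strand, and its value was 0.36 without control replicate 2, and it passed without control replicate 1 (1.73) and without Erastin replicate 1 (1.18).

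Read per length within a library, shares among close relatives do not depend on the scaling between libraries. HIF1A took 80.6% and 82.9% of the joint TPM of HIF1A and EPAS1 in control and 63.2% and 62.8% in Erastin, a drop of the mean from 81.8% to 63.0%. CA9 took 41.7% and 39.9% of the carbonic anhydrase pair in control and 26.3% and 22.2% in Erastin. This difference was −16.5 percentage points per length and −6.76 points without division by exon length. CA9 is listed with 1670 exon bases and CA12 with 7313. Of the CA9 bases, 38.5% overlap ARHGEF39, where reads matching both genes were left out, so the share of CA9 can be understated. PFKP took 66.2% of the 3 phosphofructokinases in control and 60.4% in Erastin, PFKFB3 57.6% and 65.1% of its pair, and ENO1 91.8% and 89.0% of the enolases. Of 14 shares, 11 did not overlap between the groups, beside 73.6% of single genes that did not. Another 2 overlapped, and that of SLC16A1, which had 0 counts in every library, was fixed at 0% and could not separate. The shares of the 3 phosphofructokinases depend on each other, since they add up to the whole. For each of the 11, the exact two-sided permutation test gave p = 0.333 (adjusted p = 0.424 over the 14 tests). This p is the smallest that 2 against 2 libraries allow. The share of SLC2A1 overlapped and changed direction without control replicate 2.

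**Figure D4:**
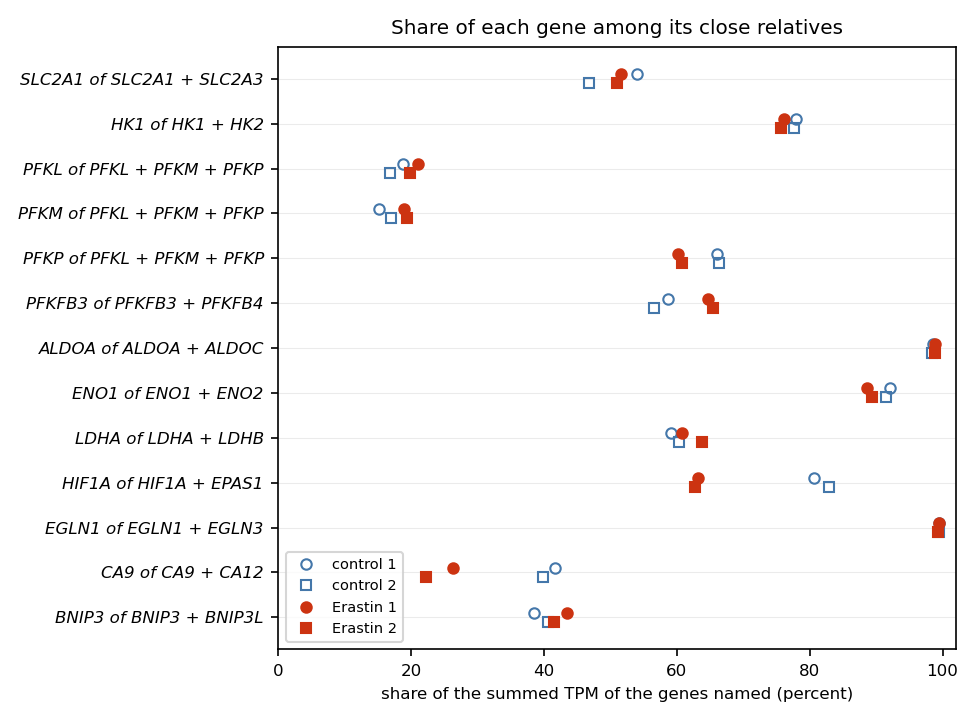
Share of 1 gene in the summed TPM of its close relatives, in percent, for each of the 4 libraries. Open symbols are control and filled symbols Erastin libraries. HIF1A and CA9 show the widest gap between the groups, and SLC2A1 shows overlapping groups.

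The order of levels within the set was led by the same 4 glycolytic genes in both groups. In control cells GAPDH stood at 3466 ± 146 TPM, ENO1 at 2843 ± 146 TPM, PKM at 1798 ± 97.8 TPM and ALDOA at 1229 ± 73.0 TPM (SD, n = 2). LDHA at 1095 ± 15.0 and TPI1 at 1067 ± 92.2 TPM followed and did not differ beyond their spread. In Erastin cells GAPDH had 4460 ± 111, ENO1 2817 ± 49.4, PKM 2152 ± 56.7 and ALDOA 1898 ± 89.8 TPM. These values give the order within a group, since TPM moved the median tested gene up by 0.187 on the log2 scale. HIF1A moved from place 7 of the set to place 11, CA9 from 21 to 33, CA12 from 16 to 27 and ADM from 29 to 19. At the low end, PDK1 had 11.7 TPM in control and 8.92 TPM in Erastin, ANKRD37 had 2.68 and 5.71 TPM and EGLN3 had 0.214 and 0.530 TPM.

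Other genes of the same pathways were read from 8 lists, of which 140 genes were in the table and 106 were tested. Of these, 29 were higher and 32 lower at an adjusted p under 0.05, and 14 and 13 passed both thresholds. The shares over all tested genes were 23.2% and 23.7%, and 6.24% and 9.34% for both thresholds, and they are the background of each list that follows. Without Erastin replicate 2, 20 were lower. In the list of mitochondrial pyruvate entry, 2 of 13 rose and 6 fell. The relatives of PDK1 fell with it: PDK4 had 229 and 283 counts in control and 21 and 30 in Erastin (log2 fold change −3.32, edgeR adjusted p = 1.40e-06), and PDK3 had 281 and 249 against 84 and 94 (−1.57, edgeR adjusted p = 6.70e-05). Among other glucose and monocarboxylate transporters 2 of 13 rose and 6 fell. SLC16A6 rose (27 and 38 counts in control, 291 and 434 in Erastin, 3.48, edgeR adjusted p = 7.45e-07), as did the fructose transporter SLC2A5 (2.28), while SLC2A12 (−2.56) and SLC16A14 (−1.33) fell. Of these, SLC2A5 and SLC2A12 had at most 41 counts in any library.

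Of 12 other glycolysis genes, 3 rose and 4 fell. PFKFB2, a relative of PFKFB3, rose by a log2 fold change of 1.14. In gluconeogenesis 3 genes were tested, and PCK2, the mitochondrial phosphoenolpyruvate carboxykinase, rose by a log2 fold change of 1.05 while pyruvate carboxylase (PC) stood at −1.12. Of 15 HIF pathway regulators, 3 rose and 4 fell. HIF1A-AS3, at the HIF1A locus, fell by 1.49 on the log2 scale (65 and 85 counts in control, 27 and 26 in Erastin). Its span overlaps that of HIF1A and counting ignored strand, so whether its reads came from HIF1A was not tested. Of 40 other HIF targets, 11 rose, 10 fell and 19 did not pass. Past both thresholds, 4 were higher and 5 lower. Of the 4 largest changes, NDUFA4L2 (1.91), STC2 (1.62) and BHLHE40 (1.44) rose and LOXL2, a collagen cross-linking oxidase, fell (−1.83).

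Of 5 genes by which p53 is known to act on glucose metabolism, 4 rose past both thresholds. RRAD rose from 2593 and 2414 counts to 21374 and 19976 (3.05, edgeR adjusted p = 3.18e-10), SESN2 by 2.14, SESN1 by 1.53 and TIGAR, which lowers fructose-2,6-bisphosphate, by 1.06. Of 5 genes of the glucose-sensing factors MondoA and ChREBP, 3 rose and 1 fell. TXNIP, which restrains glucose uptake and is induced by these factors, rose from 2052 and 2127 counts to 19823 and 21260 (3.30, edgeR adjusted p = 1.66e-10). Its relative ARRDC4 rose by 1.64, and MLXIPL, which encodes ChREBP, fell (−1.30). Counts of 5 genes are too few to set beside the background of the whole table.

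**Figure D5:**
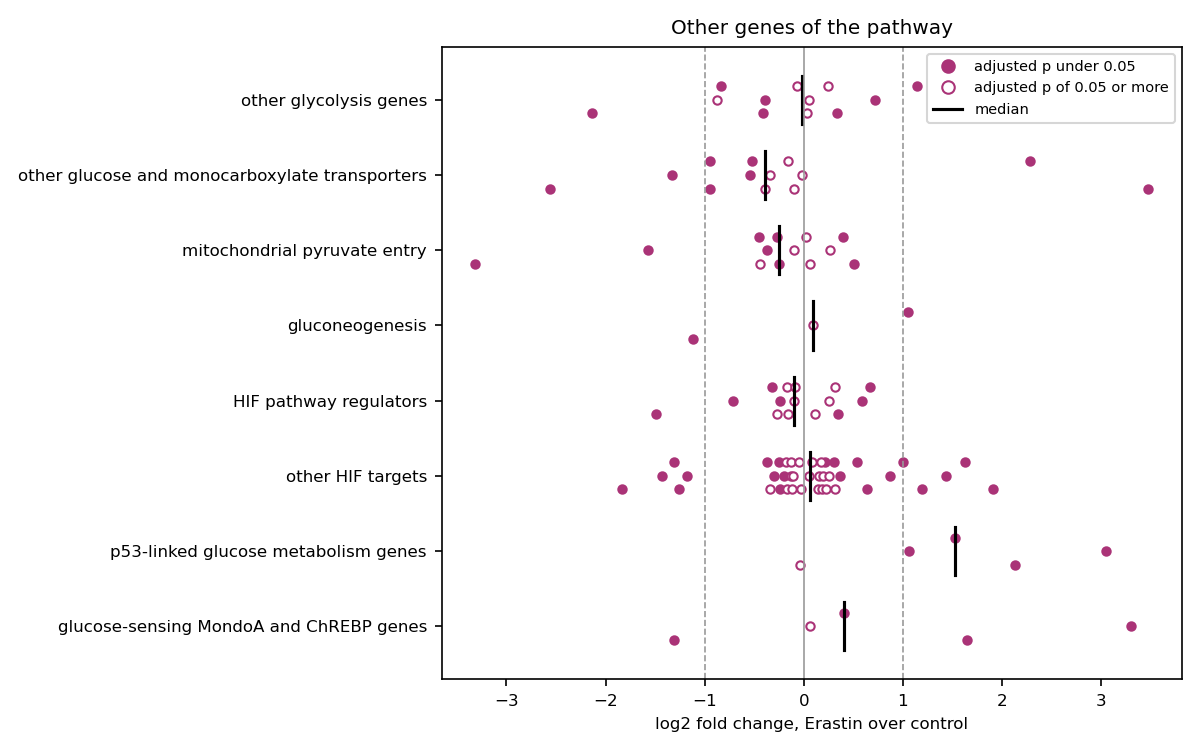
Log2 fold change, Erastin over control, of the tested genes of 8 further lists of the pathway, 1 point a gene, with the median of each list as a bar. Filled points passed an adjusted p of 0.05 and dashed lines mark 1 and −1. HIF targets spread to both sides (11 higher and 10 lower), while 4 of the 5 p53-linked genes lie to the right.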

How the data were processed

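Total RNA of 4 U87MG libraries was sequenced by the authors, who deposited raw counts of reads per gene, without normalization. Per the file header the table was written by featureCounts 2.0.3 using GRCh38 and Ensembl release 90, unstranded, with the reads of a pair counted separately and reads matching more than 1 place or gene left out. The submitters' processing notes list HISAT2 2.1.0 and featureCounts 2.0.4, and the study's methods name htseq-count.

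Tests used edgeR 4.0.16 under R 4.3.3 (low counts removed by filterByExpr at a minimum of 10, TMM factors from 0.971 to 1.02, quasi-likelihood test, Benjamini-Hochberg adjustment over the 16751 genes tested). Thresholds were an adjusted p of 0.05 and, for calls, a log2 fold change of 1 in size. Standard errors were derived from the F statistic of each gene, and the biological coefficient of variation was 10.3%. CPM used TMM-scaled library sizes, and TPM was computed from counts and the exon length in the table. Intervals came from the same fit, so they reflect counting error and the spread between these libraries only. PCR duplicates were not marked by molecular identifiers.

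The members and lists were chosen with earlier results of these data known. Genes past both thresholds, the 3 of each role with the largest change and 9 genes that often stand for the pathway were given in full, and from each further list up to 4 genes past both thresholds with the largest change were named, except for 1 gene that is not reported here. The alternatives tried were RLE size factors, DESeq2 1.42.0, library totals, other filters, a replicate block, halved counts and each library left out in turn. The tests were checked on simulated data. ChIP-seq and HiChIP samples were not analysed here.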

Additional observations from a re-analysis of the deposited data

How the results depend on the processing

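The calls past both thresholds stood at 1 gene higher and 2 lower with DESeq2, RLE size factors and library totals. At least 10 counts in every library gave 2 higher, with EGLN3 added, and leaving out 1 library each gave 1 to 3 higher. Lower calls were 2 or 3 throughout, as CA12 lies at the limit. At an adjusted p under 0.05 alone, leaving out a library gave 12 to 21 genes higher and 7 to 10 lower, and 20 to 30 lower in the further lists, the fewest without Erastin replicate 2. Library totals moved the role median to −0.52 for lactate and 0.40 for HIF. With 1 library left out, role medians ran from 0.79 to 0.94 for glucose uptake, 0.070 to 0.24 for the glycolytic steps, −0.60 to −0.48 for lactate and 0.29 to 0.37 for HIF. Leaving out a library left 1 in its group, which the fit assumed to vary like the other group. These shifts came from fewer libraries or another scaling, and their cause was not tested further.

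Single genes that changed sign were PFKL (−0.046 to 0.34), PKM (−0.025 to 0.15) and ALDOC (−0.089 to 0.035) when a library was left out, and ALDOC (0.024) and VEGFA (0.024) with library totals. The share of SLC2A1 ran from −2.75 to 4.50 percentage points. Step totals on the TMM scale in place of TPM gave log2 ratios of 0.86 for the transporters, 0.26 for hexokinase, −0.25 for glucose-6-phosphate isomerase, −0.056 for phosphofructokinase, 0.16 for the phosphofructokinase-2 regulators, 0.43 for aldolase, 0.19 for triosephosphate isomerase, 0.17 for glyceraldehyde-3-phosphate dehydrogenase, 0.081 for phosphoglycerate kinase, −0.070 for phosphoglycerate mutase, −0.16 for enolase, 0.067 for pyruvate kinase, −0.46 for lactate dehydrogenase, −0.59 for pyruvate dehydrogenase kinase and −0.59 for the monocarboxylate transporters. The monocarboxylate transporter total was SLC16A3 alone, since SLC16A1 was at 0 in every library. With a library left out, the TPM ratios ran from 0.30 to 0.48 for triosephosphate isomerase, −0.015 to 0.080 for enolase, −0.31 to −0.23 for lactate dehydrogenase and −0.44 to −0.35 for pyruvate dehydrogenase kinase. ACGTG alone was in 37.7% of the windows of the set.

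Replicate numbers are given without any pairing in the labels, and same-numbered libraries deviated from their group means with a correlation of 0.0293 across genes. With the replicate number as a block, 1 gene was called higher and 3 lower, and 17 and 9 passed the adjusted p alone. The block added PFKP, TPI1 and ANKRD37 (adjusted p = 0.0392, 0.0467 and 0.0473 in edgeR) and dropped ENO1.

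EGLN3 and ANKRD37, the tested genes of the set with fewest counts, had standard errors of 0.541 and 0.407 on the log2 scale, and neither passed with counts divided by 2 (edgeR adjusted p = 0.0694 and 0.0864).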

Other observations

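Genes that overlap or neighbour the set were read in the same test. At the HIF1A locus, the opposite-strand transcript HIF1A-AS3 had a log2 fold change of −1.49 (65 and 85 counts in control, 27 and 26 in Erastin, edgeR adjusted p = 0.00595), and HIF1A-AS1 had 21 and 12 counts against 7 and 5, which did not pass (adjusted p = 0.140). HIF1A shares 2.27% of its exon bases with HIF1A-AS1, where reads were not counted. The span of HIF1A-AS3 overlaps that of HIF1A, and counting ignored strand. Whether reads of HIF1A-AS3 came from HIF1A was not tested. ARHGEF39, opposite CA9, fell by 1.76 on the log2 scale (edgeR adjusted p = 1.48e-05). Divergent transcripts of SLC2A1 and HK2 did not pass. SLC2A1-DT had 34 and 42 counts in control and 48 and 40 in Erastin, and HK2-DT had 58 and 101 against 65 and 61. UCN2, which shares 4.73% of the exon bases of PFKFB4, rose by a log2 fold change of 1.06 (144 and 201 counts in control, 347 and 368 in Erastin, edgeR adjusted p = 0.000659). CSNK1D, opposite the lactate exporter SLC16A3, rose by 0.46 (adjusted p = 0.000116), whereas SLC16A3 itself fell.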
